A study of Arabidopsis thaliana with 3 samples.

Results

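EXO (EXORDIUM, locus AT4G08950) was measured by 1 probe set on arrays of Arabidopsis thaliana leaf RNA. It is 1 of 22746 probe sets compared, after 64 array controls were set aside from 22810. It is also 1 of 13287 genes that have a probe set naming no other gene. EXO was chosen by its ratios between these same arrays, so its signals, ranks and ratios are descriptions and no test is made on them.

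Leaves of 2 week old plants were profiled on 3 arrays with 1 array per genotype. MKK2 line A and MKK2 line B carry an MKK2 transgene in the Col-0 background. The third array is titled untreated Col-0, the standard laboratory accession, and its title names no transgene. The titles of the MKK2 arrays state no treatment. The study overexpressed MKK2, a MAP kinase kinase of stress signalling, in a wild-type and in a constitutively active form. Line A is titled w.t.4 but has EE4 in its source name, and line B is titled EE4 but has w.t.4 in its source name. Which line carries the active variant was therefore not decided, and no direction between the variants is given. The promoter of the transgenes, the number of plants behind each array and the relation of the lines to independent transformants were not given in the sources used here. No replicate error exists for any value.

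EXO encodes a secreted protein of the cell wall space that promotes cell expansion in leaves and roots. It is a classical target of brassinosteroids, plant steroid hormones that are perceived at the cell surface by BRI1 and its relatives and act on transcription through BZR1 and BES1. Plants that lack EXO grow smaller leaves, and plants that overexpress it grow larger ones. The protein belongs to a small plant family related to the phosphate-induced PHI-1 of tobacco, and EXO has also been tied to the sugar status of the plant.

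EXO was a bright transcript in both MKK2 lines and a modest one in Col-0. Its signal, a MAS5 intensity on a scale where each array has a trimmed mean of 100, was 1602 in line A, 1227 in line B and 117 in Col-0. The deposited values before this scaling were 1602, 1228 and 117 for the same arrays, so the scaling itself hardly touched them. Both lines lay far above Col-0, and line A lay somewhat above line B.

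Against its own array, the EXO signal was 50.9 times the median probe set in line A, 35.9 times in line B and 3.33 times in Col-0. It ranked 350th from the top in line A, 492nd in line B and 5407th in Col-0. This places it in the top 1.54% of probe sets in line A, the top 2.16% in line B and the top 23.8% in Col-0. The Col-0 signal was thus not at the dim end of the array, where MAS5 values are least precise: it stood just above the 75th percentile of that array, which was 111. A rank depends on how well each probe set binds as well as on transcript amount, so it locates EXO on an array and does not order genes by abundance.

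**Figure D1:**
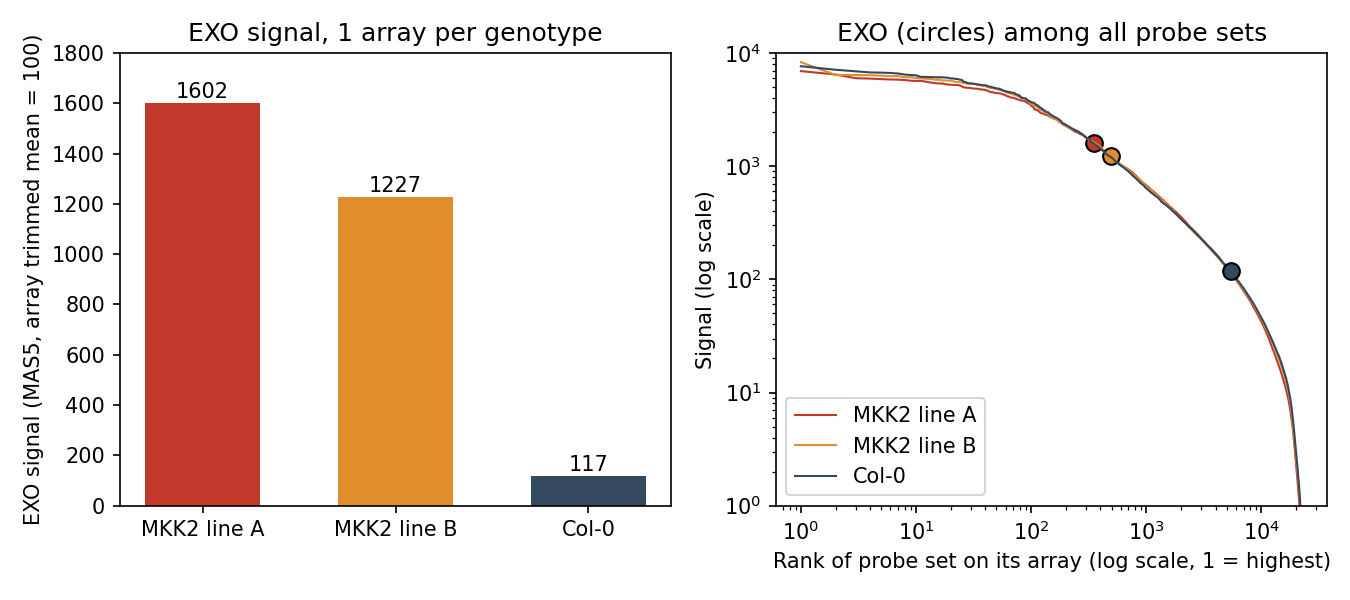
Left, EXO signal (MAS5, array trimmed mean of 100) on the single array of each genotype, with 1602 in MKK2 line A, 1227 in MKK2 line B and 117 in Col-0. Right, signal of the probe sets compared against rank on each array, both on log scales; the 3 curves nearly coincide, and the circles mark EXO at rank 350 in line A, 492 in line B and 5407 in Col-0.

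The ratio of EXO to Col-0 was 13.6-fold for line A and 10.5-fold for line B, which are log2 ratios of 3.77 and 3.39. Both ratios use the same Col-0 array, so any deviation of that array enters both. Of the probe sets compared, 1 stood above EXO for line A, and the same one stood above it for line B. That probe set has no gene named in the annotation and had signals of 975 in line A, 713 in line B and 60.9 in Col-0. At this floor of 25, under which dim signals were set to 25 before a ratio, EXO was the named gene with the highest ratio in both lines. For line B this held under the 7 other settings tried. For line A it did not hold with a floor of 10, where AT1G33760, described further on, had 25.3-fold against 13.6-fold for EXO, or with a pseudocount of 16, where it had 14.1-fold against 12.1-fold.

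Few probe sets came near this size. A ratio of 8-fold or more above Col-0 was reached by 10 probe sets for line A (0.0440% of those compared), by 2 for line B (0.00879%) and by 2 for both, EXO being 1 of each. A ratio of 4-fold or more was reached by 63 for line A (0.277%), 28 for line B (0.123%) and 23 for both (0.101%). In absolute signal, the gain of 1484 in line A was the 4th largest of all probe sets, and the gain of 1110 in line B was the 8th largest. Among probe sets with signals of 100 or more on both arrays, 95% (leaving out equal shares at each end) had a ratio from 0.669-fold to 1.90-fold for line A over Col-0. For line B over Col-0 that range went from 0.649-fold to 1.69-fold. Such a range holds array noise and real differences together, and it is the only spread these arrays offer.

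Set against probe sets of like Col-0 signal, EXO was the highest in both lines. There were 1791 other probe sets with a Col-0 signal within 20% of that of EXO, between 93.9 and 141. Their median signal was 108 on the line A array and 111 on the line B array. The highest of them reached 1200 for line A and 975 for line B, so none was as high as EXO in either line. Looked at from the other side, 201 other probe sets had a line A signal within 20% of that of EXO, and their lowest Col-0 signal was 209, above the 117 of EXO. The same held for the 242 probe sets with a line B signal within 20% of that of EXO, whose lowest Col-0 signal was 243.

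**Figure D2:**
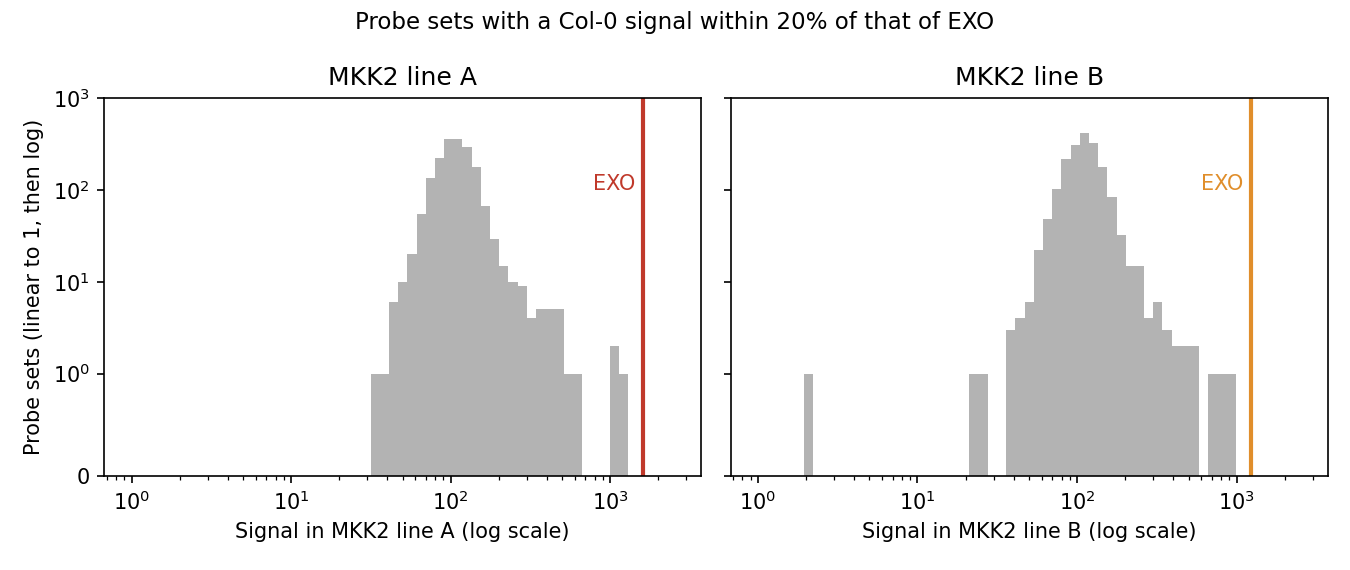
Signals in MKK2 line A (left) and MKK2 line B (right), on log axes, of the 1791 probe sets whose Col-0 signal lay within 20% of that of EXO; the vertical axis counts probe sets and is linear to 1 and then logarithmic. Most lie near 100, and the coloured lines at 1602 and 1227 mark EXO to the right of all of them. EXO was chosen by its ratios, so this place largely follows from the choice.

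Between the lines the difference was small. The EXO signal of line A was 1.305-fold that of line B, a log2 ratio of 0.38. The 95% range of probe sets with signals of 100 or more in both lines went from 0.711-fold to 1.52-fold, which includes the EXO value. In order of level, line A came first, line B next and Col-0 last. This order is a description, since EXO was chosen by these ratios.

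Most of the named genes next to EXO in rank had similar signals on all arrays. Of the 6 nearest named neighbours in line A, AT3G56880 had 1602 in line A, 1336 in line B and 611 in Col-0, with ratios of 2.62-fold for line A and 2.19-fold for line B. A second of them, AT1G32920, stood 2.40-fold and 2.16-fold above Col-0. The 6 ran from 0.933-fold to 2.62-fold of Col-0 for line A and from 0.907-fold to 2.19-fold for line B. The 6 neighbours in line B lay from 0.695-fold to 1.11-fold of Col-0 for line A and from 0.797-fold to 1.10-fold for line B. They include SWEET11, a sucrose exporter of the phloem, with 1057 in line A, 1212 in line B and 1520 in Col-0, and ATG8F, a ubiquitin-like protein of autophagy. The 6 neighbours in Col-0 lay from 0.824-fold to 1.09-fold of Col-0 for line A and from 0.872-fold to 1.47-fold for line B.

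Likeness of pattern was measured as the distance between the pair of log2 ratios of a gene and that of EXO, among 3330 other named probe sets whose highest signal was at least 100. It rests on 3 arrays, so it orders genes and shows no shared control. The nearest named gene was CML38, a calmodulin-like calcium sensor, at a distance of 0.94. Its signal was 267 in line A, 170 in line B and 28.0 in Col-0. The ratios were 9.54-fold and 6.08-fold, lower than those of EXO in both lines. Of the probe sets without a gene name, 5 were nearer to EXO than CML38, the nearest at 0.28.

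The next nearest genes included some of jasmonate metabolism and defence. AT5G05600, an enzyme that inactivates jasmonate by hydroxylation, had 183 in line A, 152 in line B and 27.7 in Col-0. PDF1.2, a defensin marker of jasmonate and ethylene, had 275 in line A, 519 in line B and 70.1 in Col-0. The related PDF1.2b, whose probe set can also read other defensin genes, had 552 in line A, 975 in line B and 139 in Col-0. For both defensins line B was the higher line, the reverse of EXO.

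A pair of AP2/ERF transcription factor genes was also near. AT1G33760 had 253 in line A, 97.4 in line B and 2.99 in Col-0, which is under the floor of 25, so its ratios of at least 10.1-fold and at least 3.90-fold are lower bounds. AT1G77640 was 5.81-fold and 3.45-fold above Col-0. AT4G27280, a calcium-binding protein gene, was the brightest of the nearest genes, with 3123 in line A, 2339 in line B and 602 in Col-0.

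EXLA1 was the nearest cell wall gene. It encodes an expansin-like protein and had 188 in line A, 177 in line B and 38.1 in Col-0, ratios of 4.95-fold and 4.65-fold. The remaining near genes were AT3G04640 (a glycine-rich protein), AT2G27080 (a membrane protein of the NDR1/HIN1-like family), AT5G52050 (an efflux carrier) and AT4G29780. Their ratios ran from 6.46-fold to 8.33-fold for line A and from 3.75-fold to 4.41-fold for line B, those of AT5G52050 being lower bounds because its Col-0 signal of 24.95 was just under the floor. Line A was above line B in 10 of the 12 nearest genes. These were chosen for nearness to EXO, itself higher in line A, so the choice favours such genes. Of the 23 probe sets, EXO among them, that were 4-fold or more above Col-0 in both lines, line A was the higher line for 20. Their median ratio of line A over line B was 1.37, beside 1.305 for EXO. Over probe sets with signals of 100 or more in both lines it was 1.00. The 23 were chosen by ratios of the same arrays, so a trait shared with EXO was not tested.

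**Figure D3:**
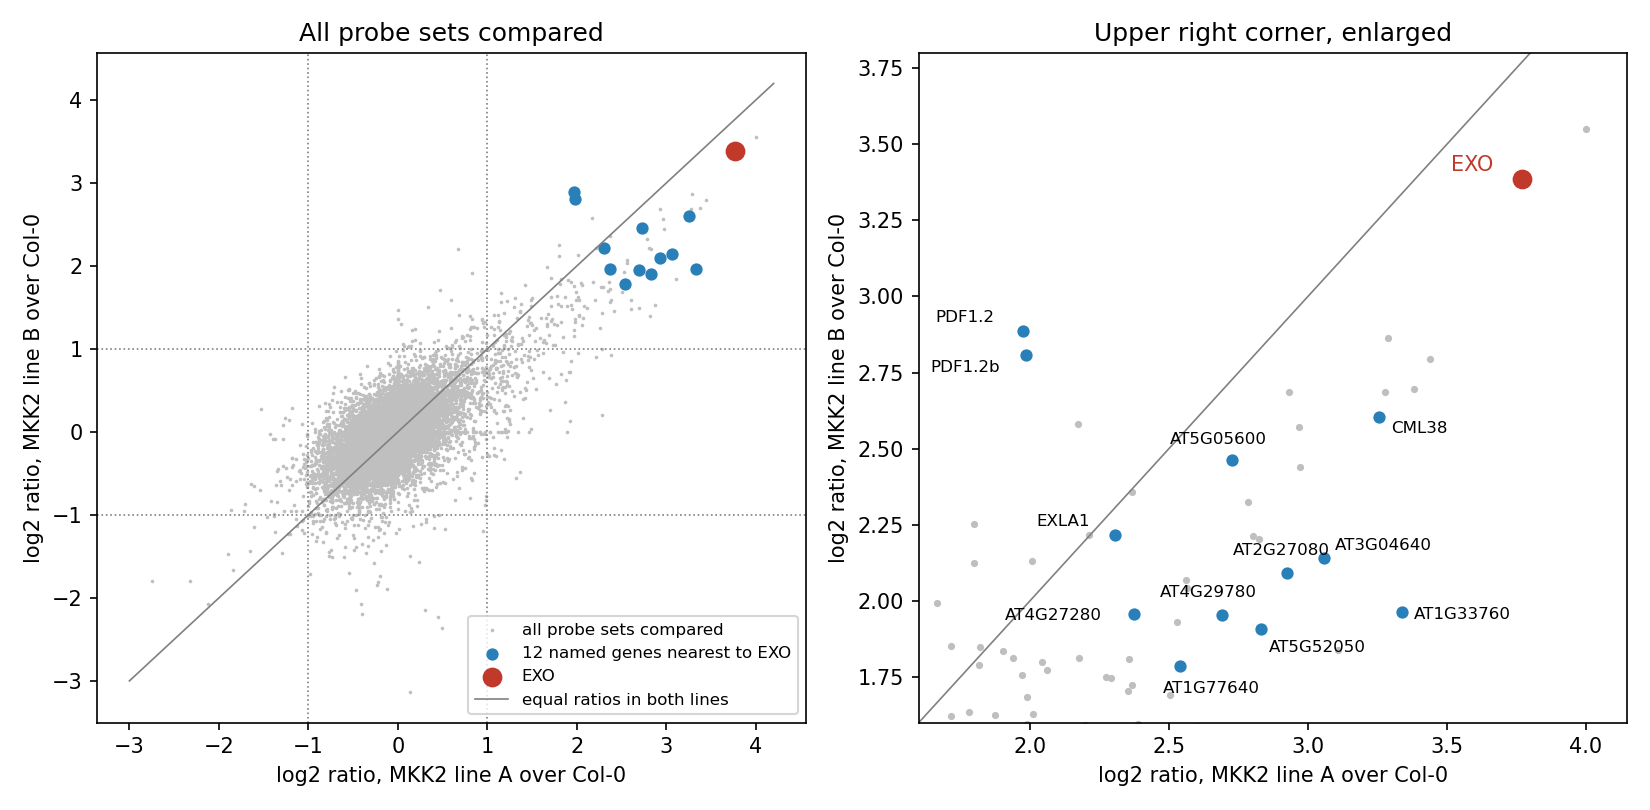
Log2 ratio of MKK2 line A over Col-0 (horizontal) against that of MKK2 line B over Col-0 (vertical) for all probe sets compared (grey), EXO (red) and the 12 named genes nearest to it (blue); the panel on the right enlarges the upper right corner. Dotted lines mark 2-fold. EXO stands at 3.77 and 3.39, beyond every other named gene at the floor of 25 (at a floor of 10, AT1G33760 exceeds it for line A), and the defensins PDF1.2 and PDF1.2b are the near genes above the diagonal.

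No other member of the EXO family could be set beside it by name. Probe sets without a gene name, the 1 above EXO among them, may read such members and were not assigned to genes. EXL1 to EXL7, the EXORDIUM-like genes, have no probe set named for them in the annotation used here, so whether EXO stood alone in its family was not analysed. The same holds for the kinase MKK2 itself, so its overexpression was not checked here. Of the 11 genes listed for the MKK2 cascade only MPK13 is named, and it was under the floor on all arrays.

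Brassinosteroid genes were thinly covered. Of 48 listed genes of brassinosteroid synthesis, signalling and growth response, 4 have a named probe set, and none was 2-fold or more from Col-0 in either line. For comparison, 1.40% of all probe sets passed 2-fold upwards and 0.391% downwards for line A over Col-0, and 0.941% upwards and 0.536% downwards for line B over Col-0. Among probe sets with 1 named gene, 1.06% passed upwards for line A and 0.666% for line B. With so few genes and such shares, a count of 0 says nothing about the pathway. Listed genes without a named probe set may be read by unnamed ones, which were not assigned to genes. The ratios of the 4 genes ran between 0.573-fold and 1.20-fold. BIM1, a partner of the transcription factor BES1, had 58.3 in line A, 62.6 in line B and 52.0 in Col-0. The receptor gene BRL1 was under the floor on every array.

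The named brassinosteroid-induced expansins lay at or below their Col-0 signal in both lines. EXPA8, a wall-loosening protein, had 318 in line A, 513 in line B and 555 in Col-0, and EXPA4 had 51.8 in line A, 73.2 in line B and 73.9 in Col-0. Both were lower in line A than on the other arrays, by 1.75-fold and 1.43-fold against Col-0, short of the 2-fold mark. In line B they were 0.925-fold and 0.990-fold of Col-0. All listed genes of brassinosteroid synthesis and of phosphate starvation lack a named probe set.

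Touch genes, many of which encode calcium sensors, were better represented. Of 12 listed, 4 are named. Of these, 3 stood 2-fold or more above Col-0 on the line A array and 2 on the line B array. Of all probe sets 1.40% and 0.941% did, but these include many dim ones, with 9549 under the floor in Col-0. The lists were chosen with earlier results of these data known, so the counts describe the lists and test nothing. Their median log2 ratio was 1.43 for line A and 0.57 for line B, beside 0 for all probe sets in both comparisons. CML38, given above, led the list. CML23, another calmodulin-like protein, had 178 in line A, 110 in line B and 49.7 in Col-0, ratios of 3.58-fold and 2.21-fold. CML37 reached 50.9 in line A, with line B and Col-0 under the floor, so line A was at least 2.04-fold higher than either. CML39 was under the floor throughout. With a floor of 50 the median for line A came to 0.93.

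Of 20 listed genes that respond within minutes to handling and wounding, 5 are named. In line A, 4 of them were 2-fold or more above Col-0, where 1.40% of all probe sets were, and in line B 2 were, where 0.941% of all probe sets were. Their median log2 ratios were 1.34 and 0.73, beside 0 for all probe sets, many of them dim and set to the floor. Among probe sets with signals of 100 or more on both arrays, the median ratio was 0.981-fold for line A and 0.980-fold for line B. This list too was chosen with earlier results of these data known, so its counts and medians are descriptions. STZ, a zinc finger repressor, had 2751 in line A, 1805 in line B and 599 in Col-0. PUB23, a ubiquitin ligase of immune signalling, had 202 in line A, 88.1 in line B and 31.2 in Col-0, and for its relative PUB22 line A stood at least 2.15-fold above Col-0. WRKY53, a transcription factor of defence and senescence, had 177 in line A, 70.3 in line B and 70.0 in Col-0, so only line A stood above Col-0. PUB22 had 27.0 in line B and 17.1 in Col-0, which is under the floor, so its 1.08-fold in line B is a lower bound. ORA47, a regulator of jasmonate synthesis, was the listed gene with its highest signal in line B, at 249, against 150.1 in line A and 150.2 in Col-0. The part of the touch and handling genes in the EXO result was not tested. The manner and time of harvest were not given in the sources used here.

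Of 16 listed sugar-starvation genes, 2 are named, and 1 of these stood 2-fold or more above Col-0 in each line. That gene, AT2G20670, had 698 in line A, 957 in line B and 201 in Col-0, ratios of 3.48-fold and 4.77-fold. AKINBETA1, a subunit of the energy-sensing kinase SnRK1, had 557 in line A, 500 in line B and 771 in Col-0, ratios of 0.723-fold and 0.648-fold, short of the 2-fold mark. Over the 14 lists, 24 genes other than EXO are named; 8 stood 2-fold or more above Col-0 for line A and 5 for line B, and none stood as far below it for either. Of all probe sets, 1.40% and 0.941% stood as far above. The lists were chosen with earlier results of these data known, so no test follows from these shares. With a floor of 50 these counts were 6 and 4, and CML37 and PUB22 no longer passed for line A nor PUB23 for line B.

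**Figure D4:**
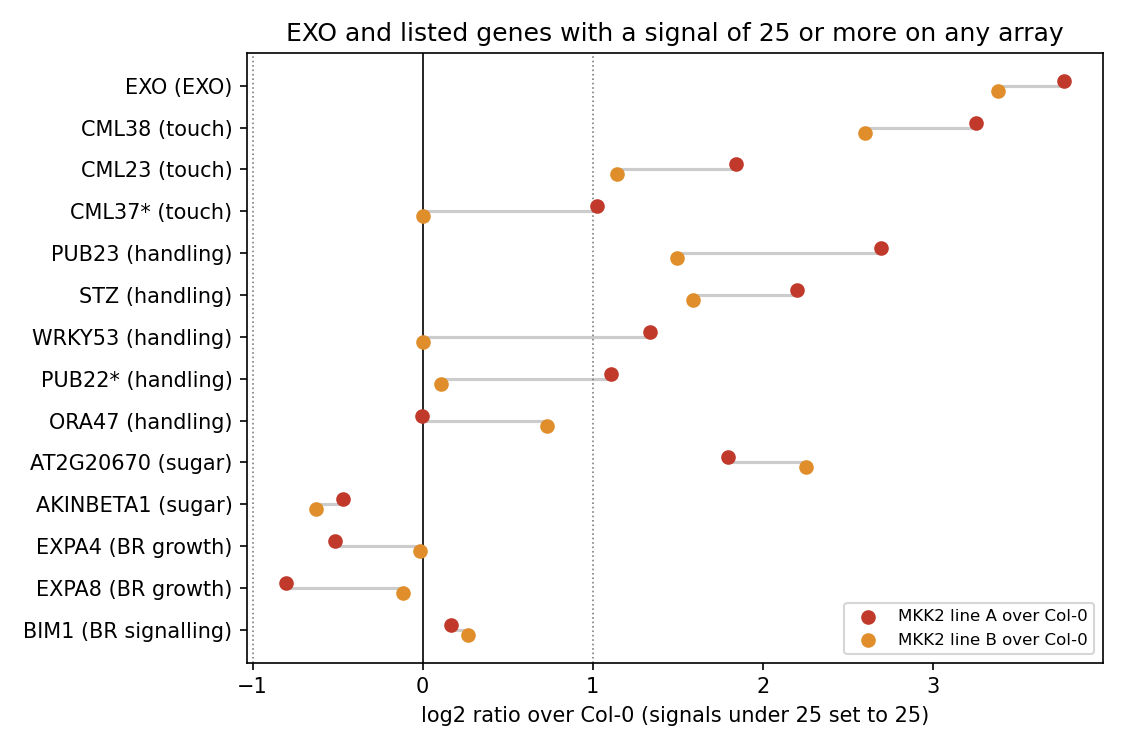
Log2 ratios over Col-0 of EXO and of the listed touch, handling and wounding, sugar starvation and brassinosteroid (BR) genes with a signal of 25 or more on any array, in MKK2 line A (red) and MKK2 line B (orange), 1 array each. An asterisk marks a Col-0 signal under the floor of 25, and dotted lines mark 2-fold. EXO is furthest to the right at 3.77 and 3.39, and the named brassinosteroid genes lie within 2-fold of Col-0.

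Genes of cell growth were also followed by family name, a choice made after their values were seen. Of all probe sets, 1.40% stood 2-fold or more above Col-0 for line A and 0.391% as far below. For line B the shares were 0.941% and 0.536%. At such shares, counts at or near 0 in families this small do not show whether a family followed EXO. Of 18 named expansins and expansin-like genes, 8 were under the floor on all arrays. EXLA1 was the only one of the 18 that was 2-fold or more above Col-0, and it was so in both lines. EXPB1, a beta-expansin, had 21.4 in line A, 48.7 in line B and 50.6 in Col-0, and was at least 2.02-fold lower in line A. EXLA2 and EXLA3, the closest relatives of EXLA1, had at most 28.3 and 2.78 on any array.

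Of 9 named xyloglucan endotransglucosylases, enzymes that cut and rejoin wall polymers, XTH18 was the only one 2-fold or more from Col-0. It had 34.5 in line A, 82.0 in line B and 18.7 in Col-0, at least 3.28-fold higher in line B. XTH32, the brightest of the 9, had 276 in line A, 247 in line B and 197 in Col-0. Auxin response genes of the Aux/IAA and GH3 families numbered 12, with 7 under the floor on all arrays and none 2-fold from Col-0. The gibberellin receptor genes GID1A, GID1B and GID1C also stayed within 2-fold, with GID1A at 67.4 in line A, 67.6 in line B and 75.5 in Col-0.

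Beside EXO on the chromosome, only AT4G08960 among the named genes had signals above the floor in the lines. These lay below its Col-0 signal. Among the 10 annotated genes on each side, 9 of the 20 are protein-coding and 3 have a named probe set. AT4G08960, the 3rd gene on one side, had 117 in line A, 125 in line B and 146 in Col-0, ratios of 0.797-fold and 0.852-fold. AT4G08940, the 3rd gene on the other side, had 15.8 in line A, 22.8 in line B and 25.5 in Col-0, near or under the floor. The pseudogene AT4G08970 was under the floor on all arrays. For comparison, 1.40% of all probe sets stood 2-fold or more above Col-0 for line A and 0.941% for line B. So few readable neighbours do not show whether the region followed EXO, which was not tested.

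Leaf identity was checked on 3 named mesophyll genes. RCA, which encodes rubisco activase, had 5172 in line A, 5323 in line B and 5899 in Col-0, and LHCB4.1 and PSAE1 of the photosystems had at least 4324 on every array and stayed within 2-fold of Col-0. The guard cell genes GC1 and FAMA stayed within 2-fold, with GC1 at 315 in line A, 290 in line B and 375 in Col-0. The root hair expansin EXPA7 and the meristem gene CLV3 were under the floor on all arrays, the mitotic kinase gene AUR1 was at most 39.9, and no flower or seed marker is named. Across probe sets, log2 signals gave r = 0.978 for line A and Col-0, 0.981 for line B and Col-0, and 0.987 for the lines, where probe sets are not independent replicates. Signal ratios between the 3′ and 5′ ends of control transcripts, a sign of RNA integrity, were above Col-0 in both lines for 4 of 6 controls and below it for 2. They ran from 1.15 to 4.09 in line A, from 0.966 to 3.83 in line B and from 0.816 to 3.75 in Col-0, and their part in the EXO ratios was not tested. In leaf RNA, a change in the mix of cells and a change of transcript per cell cannot be told apart.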

How the data were processed

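The values the authors deposited are intensities, 1 for each probe set on an array. They are MAS5 signals, per the submitters' processing notes. MAS5 combines the matched and mismatched probes of a probe set. Its version, the detection calls and the genome build were not given in the sources used here. Gene coordinates are therefore left out. No sequence of EXO was used here.

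The trimmed mean (2% cut at each end) was 100.01 on every array, and each was scaled to exactly 100. Signals under 25 were set to 25 before ratios were taken. Where this changed 1 signal of a pair, the size of the difference is a lower bound. Where it changed both, the ratio is 1 and bounds nothing. A ratio of 2-fold or more counted as higher or lower. Arrays have no read depth, and their number limits the precision. With 1 array per genotype no test was made.

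Of 22746 probe sets, 13513 name 1 gene in the platform annotation, 503 name several and 8730 name none. Symbols come from the TAIR10.1 reference, which matched 13436 of the first. Of several probe sets for a gene, the brightest was taken for the lists, families and genome neighbours. For the genes nearest in pattern the probe set closest to EXO was taken, and rank neighbours were drawn from all named probe sets. The named genes are EXO, its family, the 12 genes nearest in pattern, 3 rank neighbours on each side per array, list members 2-fold from Col-0 or furthest from 0, and the genome neighbours furthest from 0. The gene and the 14 lists (171 genes besides EXO) were chosen with earlier results of these data known. Medians were given for lists with 3 or more named genes. A search for promoter motifs was planned and not run, for want of a promoter table. The counting was tested on simulated data. Python 3.11.15, numpy 2.4.6, pandas 2.3.3 and statsmodels 0.14.6 were used. Alternatives were the deposited scale, quantile normalization, scaling to the median, loess centring (span 0.4), a pseudocount of 16, floors of 10 and 50, thresholds of 1.5-fold and 3-fold, probe sets without a suffix, means over probe sets of a gene, another distance, and exchanged line names.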

Additional observations from a re-analysis of the deposited data

How the results depend on the processing

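No paired analysis was possible because each genotype has 1 array. Under 7 alternatives (other scalings, floors and the pseudocount) the EXO ratio over Col-0 ran from 12.1-fold to 14.2-fold for line A and from 9.32-fold to 10.7-fold for line B. That of line A over line B ran from 1.301-fold to 1.334-fold. Its ratio rank in line A was 6 with a floor of 10, which lets dim probe sets reach larger ratios, and at most 3 under the others. AT1G33760 was the only named gene above it in line A, at 25.3-fold with that floor and 14.1-fold with a pseudocount of 16. Exchanging the line names turns line A over line B to 0.766.

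Counts of probe sets 2-fold or more from Col-0 depended on dim signals, and the cause was not tested further. With a floor of 10, line A had 449 higher and 508 lower, against 318 and 89 with the floor of 25, so lower calls came to outnumber higher ones. Line B had 405 higher and 360 lower at that floor, against 214 and 122, and between the lines 276 were higher and 346 lower. With a floor of 50, line A had 37 lower, line B had 57 lower, and between the lines 73 were higher and 13 lower. Line A had 58 lower under quantile normalization and 58 under loess centring, against 89. At 1.5-fold, line A had 754 higher and 891 lower, line B 701 higher and 709 lower, and line A over line B 533 higher and 550 lower. At 3-fold these were 121 and 12, 69 and 17, and 21 and 1. Of the listed genes, 5 passed 3-fold upwards for line A and 3 for line B, and 1 was lower in each line at 1.5-fold. Of the 12 genes nearest to EXO, 11 remained with the largest difference as the distance, 12 at a floor of 10 and 7 at a floor of 50.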
